A study of Mus musculus with 2 samples.

Results

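Small pre-B and immature B cells of the bone marrow were followed here, the steps at which a B cell precursor rearranges its light chain genes and then displays a complete antigen receptor. The cells were picked from single-cell RNA counts by their own transcripts. A barcode had to hold at least 500 UMIs (unique molecular identifiers, each counted as 1 captured transcript), at most 20% of them mitochondrial and under 20% from hemoglobin genes. It also had to hold at least 3 UMIs of Cd79a and Cd79b together, which encode the signalling chains of the B cell receptor, and fewer than 2 of Vpreb1 and Igll1, the surrogate light chain of earlier precursors. Fewer than 2 UMIs of Ighd (the IgD heavy chain of mature B cells), fewer than 20 of Jchain (plasma cells), none of Siglech (plasmacytoid dendritic cells) and under 5% of UMIs from the neutrophil granule genes S100a8, S100a9, Camp, Ngp and Ltf completed the rule. It took 1960 of 33691 filtered barcodes, 1263 of 19764 in one library and 697 of 13927 in the other.

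The 2 libraries came from femoral bone marrow of 2-month-old mice, 1 library per genotype. The WT library was from a Ddx41fl/fl littermate with no Cre and with wild-type cGas, so that the floxed Ddx41 alleles are shared by both libraries. The DKO library was from a VavCre:Ddx41 fl/fl, cGAS-/- mouse, in which Cre is driven in blood cells from the Vav promoter, which is also active in endothelial cells and oocytes. Ddx41 is a DEAD-box RNA helicase and cGAS is a cytosolic DNA sensor, and the libraries set marrow that lacks both against control marrow. With 1 library per genotype there was no replicate and no test, cells of 1 library are not replicates of a genotype, and a difference between genotypes cannot be told apart from one between animals or library preparations. Every interval below is a 95% interval for counting error only.

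After a successful heavy chain rearrangement a precursor divides as a large pre-B cell, stops, and becomes a small pre-B cell that again makes the Rag1 and Rag2 recombinase and joins a kappa or lambda light chain. Once the light chain pairs with the mu heavy chain, IgM reaches the surface, the recombinase is shut off unless the receptor binds self, and the cell raises MHC class II and later IgD on its way to the spleen. Interleukin 7, read through Il7r, sustains the early end of this path, and Cxcr4 holds precursors in the marrow.

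The label was checked against genes that the rule did not use. Ebf1, a factor that commits cells to the B lineage, had a UMI in 96.1% of WT and 96.1% of DKO members, against 3.01% and 2.20% of granule-rich barcodes that lacked Cd79a and Cd79b and gauge free RNA (median depth 4706.5 and 4716 UMIs, against 2485 and 3635 in members). Pax5, which maintains B identity, had one in 73.6% and 86.9% of members against 0.527% and 0.414% of those barcodes. Dntt, the terminal transferase of pro-B cells, held only 4 and 17 UMIs, 12 of the latter in 1 barcode. The marker Vpreb3, a chaperone-like chain of pre-B and immature B cells, was at 1759 CPM (UMIs of a gene per 1000000 UMIs of the members) in WT and 2187 in DKO, and 72.2% and 86.2% of members had a UMI of it. Members therefore carried B lineage genes, which alone do not place each member at the small pre-B or immature stage. The markers Cd79a and Cd79b follow from the rule.

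Some barcodes among them did not look like B cells alone. A set of 105 WT and 45 DKO barcodes held at least 2 UMIs over 35 markers of other lineages, each found in under 3% of the members of at most 5000 UMIs. These barcodes were deep, with medians of 12559 and 23456 UMIs, so that they gave 38.5% and 28.8% of all 5189025 and 3813973 member UMIs. Their median share of UMIs from B lineage genes was 0.260% and 0.122%, against 1.40% and 1.94% in the rest, and they held 98.5% to 99.4% of the members' Mpo, Elane, Prtn3 and Ctsg UMIs, which are genes of neutrophil precursors. One DKO barcode alone held 9095 of 19656 Igkc and 2670 of 2713 Ighg2c UMIs, and 1 WT barcode held 2837 of 3279 UMIs of the platelet gene Pf4. Results are therefore given for all members and without these barcodes, which leaves 1158 WT and 652 DKO cells with 3192479 and 2717359 UMIs. The criterion was chosen after the data were seen, and it counts UMIs without regard to depth, so deep B cells can meet it too. Of the barcodes left out, 55 of 105 in WT and 26 of 45 in DKO had under 0.3% of their UMIs in B lineage genes. Their upper quartile was 0.691% in WT and 1.44% in DKO, against lower quartiles of 0.865% and 1.26% in the rest.

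The remaining cells held few transcripts of other lineages. The 8 T cell markers summed to 4.07 CPM in WT and 2.58 in DKO, with Cd3g and Cd8a at 0 in both. The 6 NK cell markers summed to 6.26 and 0.736 CPM, with Ncr1 at 0 in both. The 9 neutrophil markers still summed to 1350 and 1023 CPM and the 8 erythroid markers to 5586 and 3803, and free RNA was estimated from hemoglobin at 2.73% and 1.37% of member UMIs. The 9 monocyte and macrophage markers summed to 225 and 92.0 CPM, the 4 megakaryocyte markers to 114 and 40.1, and the 4 basophil markers to 4.39 and 1.10. These sums were each higher in WT, and their part in the results below was not tested. Plasma cell (574 and 509 CPM), dendritic (29.8 and 29.4) and stromal or endothelial markers (292 and 328) were closer between the libraries. The Scrublet doublet caller marked 9 WT (0.713%) and 5 DKO (0.717%) members, which were kept, at the threshold it set for the DKO library, since its own WT threshold marked no barcode. The libraries shared 82 barcodes of at least 500 UMIs, and no barcode was a member in both. Both libraries held the Y-linked Ddx3y (272 and 254 member UMIs), with 0 and 1 UMI of Xist.

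Members were 6.39% (6.05 to 6.74) of filtered WT barcodes and 5.005% (4.65 to 5.38) of DKO barcodes. The DKO counts were deposited for barcodes already called as cells and the WT counts for all barcodes, so these denominators were not made alike, and the part of that in the shares was not tested. Of B lineage barcodes, taken as the members with 292 and 167 pro-B or large pre-B barcodes and 776 and 674 mature barcodes with Ighd, they were 54.2% (52.1 to 56.2) and 45.3% (42.8 to 47.8). DKO members were deeper than WT members, and the rule has upper limits on UMIs. Barcodes were also thinned to 1000 UMIs before the rule was applied. Shallower ones, 8.77% of WT and 6.19% of DKO filtered barcodes, were left out. Members then made 80.5% and 80.2% of B lineage barcodes, a difference within their intervals. Their share of all thinned barcodes was 6.33% and 5.17%.

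**Figure D1:**
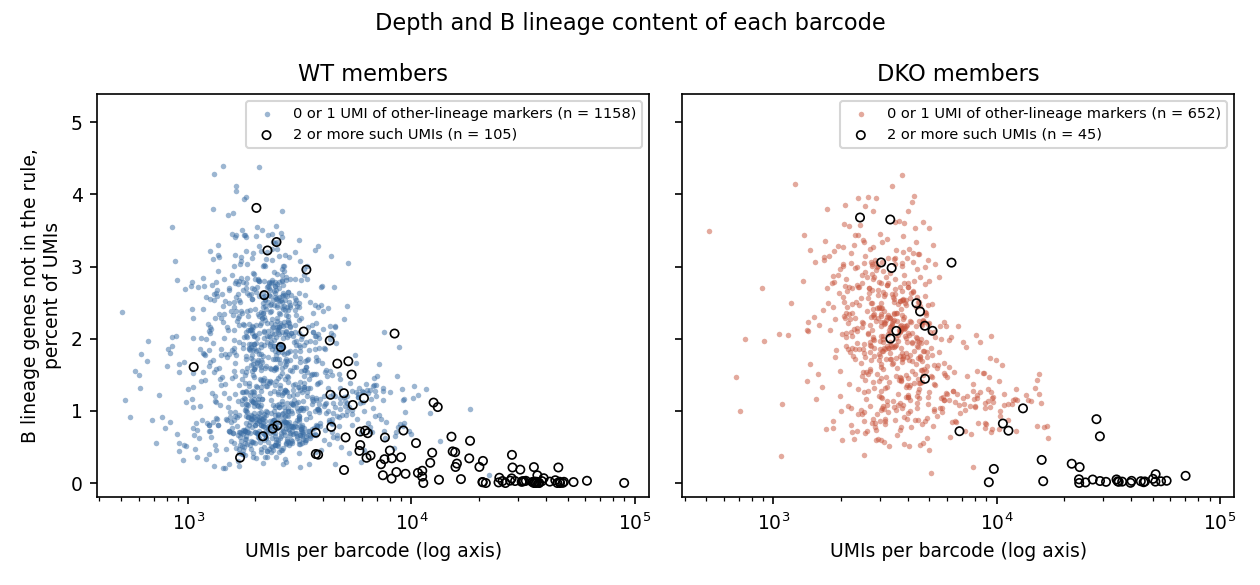
Each point is 1 member barcode of the WT or DKO library, placed by its UMI total (log axis) and the percentage of its UMIs in B lineage genes that the rule did not use. Barcodes with at least 2 UMIs of other-lineage markers sit mostly to the right, with median totals of 12559 (WT) and 23456 (DKO). Of these, 55 of 105 WT and 26 of 45 DKO barcodes lie under 0.3%, and others overlap the remaining 1158 and 652 cells in B lineage share.

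Cells near the limits of the rule were counted once. Exactly 3 UMIs of Cd79a and Cd79b were held by 90 WT and 23 DKO members, and 158 and 70 barcodes fell outside with 2. A single Ighd UMI was held by 386 and 210 members, and 280 and 145 barcodes fell outside with 2. A single surrogate light chain UMI was held by 56 and 39 members, and 19 and 11 barcodes fell outside with 2.

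Ddx41 and Cgas were both lower in DKO members. Ddx41 had 202 UMIs in WT (38.9 CPM) and 77 in DKO (20.2 CPM), a log2 ratio of -0.94 (-1.34 to -0.56), and -1.21 without the other-lineage barcodes. Cgas had 83 and 29 UMIs, a log2 ratio of -1.04 (-1.74 to -0.45), and only 12 and 3 once those barcodes were left out (-1.47, with an interval of -4.23 to 0.12). Tags at the 3′ end of a transcript can lie outside the deleted part of a gene, so these values do not check the genotype.

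Most genes were within the fold between the libraries. Genes with a mean of at least 20 CPM were compared, and "tested" below means that alone, with no statistical test. Of 6670 such genes, 713 (10.7%) differed by at least 1.5-fold, the difference called here, with 406 (6.09%) higher and 307 (4.60%) lower in DKO. Without the other-lineage barcodes, 596 of 6380 genes (9.34%) passed, 368 higher (5.77%) and 228 lower (3.57%), and 244 higher and 134 lower calls were shared by both sets. The median log2 ratio was 0.06 over all genes and 0.09 without those barcodes, so the fold of a gene list below is to be read against a value near 0. Every count of called genes that follows is to be read against those shares.

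**Figure D2:**
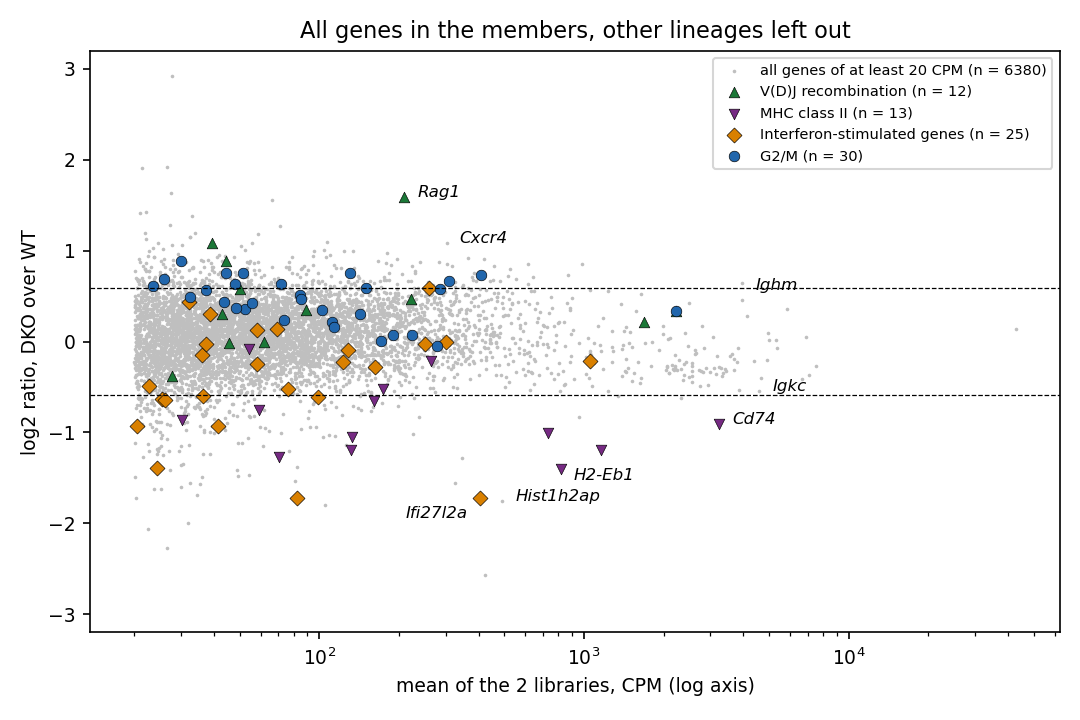
Each point is 1 of 6380 genes in the members without other-lineage barcodes, placed by its mean level in CPM (log axis) and its log2 ratio of DKO over WT, with dashed lines at 1.5-fold. Rag1 at 1.59 and H2-Eb1 at -1.40 lie far from the bulk, whose median is 0.09.

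Both chains of the recombinase were higher in DKO members. Rag1, the catalytic chain of the recombinase (chr2:101638282-101649501, minus strand, GRCm38), had 345 UMIs in WT and 890 in DKO members, or 66.5 and 233 CPM. Its log2 ratio was 1.81 (1.63 to 2.0), and 1.59 (1.41 to 1.78) without the other-lineage barcodes, where it stood at 104 and 314 CPM. Rag2, its partner chain, encoded beside it on the opposite strand (chr2:101624718-101632529), went from 90 to 150 UMIs, 17.3 to 39.3 CPM, with ratios of 1.18 (0.79 to 1.57) and 1.08. Neither interval holds 0, and the ratio of Rag1 was 0.96 when the 3 ranges of class II described below were averaged with equal weight, one of which held 1 Rag1 UMI.

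The share of cells with the transcript was higher too. A Rag1 UMI was found in 18.4% of WT and 42.0% of DKO members, and in 8.23% and 23.9% after thinning to 1000 UMIs, against 0.146% and 0.127% of the granule-rich barcodes. Among the factors that seal the cut DNA ends, Lig4, the ligase, stood at 21.6 and 43.5 CPM with a log2 ratio of 1.01 (0.88 without the other-lineage barcodes). Dclre1c (Artemis, which opens the hairpin ends) had 0.73 and 0.58, and Xrcc6 (Ku70, which binds broken ends) 0.59 and 0.47. Of 17 genes of V(D)J recombination 12 were at 20 CPM or more, 5 were called higher and 0 lower, with a median of 0.41, and without the other-lineage barcodes 3 were called higher (Rag1, Rag2 and Lig4) and 0 lower, with a median of 0.34.

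Several receptors and surface antigens of precursors and immature cells were higher as well, but not every early stage marker was. Il7r, the interleukin 7 receptor chain (chr15:9505788-9530176), stood at 197 CPM in WT and 346 in DKO members (1022 and 1318 UMIs), a log2 ratio of 0.81 (0.69 to 0.93) and 0.71 without the other-lineage barcodes. Il2ra, the CD25 antigen of small pre-B cells, stood at 40.1 and 81.3 CPM, with 1.02 and 0.81. Cd93, an antigen of immature B cells, stood at 80.0 and 157 CPM, with 0.97 and 0.99. Cxcr4, the receptor for the marrow chemokine CXCL12, went from 156 to 345 CPM, with 1.14 (1.02 to 1.27) and 1.08. Bst1, an enzyme on the surface of marrow B cell precursors, went from 24.1 to 59.3 CPM, with 1.29 and 1.18. Averaged over the class II ranges, Il7r stood at 0.36 and Cxcr4 at 1.03. Cd2, an antigen also listed for small pre-B cells, was instead lower, at 106 and 90.7 CPM, with -0.22 and -0.38 (-0.59 to -0.18). Erg, a gene listed for pro-B and large pre-B cells, had -0.12 and -0.80 (-1.61 to -0.08). The last ratio came from 48 and 23 UMIs.

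Receptors of later stages had no common direction. Fcer2a, the CD23 antigen of mature follicular B cells, stood at 56.3 CPM in WT and 30.7 in DKO members, a log2 ratio of -0.87 (-1.20 to -0.56) and -0.99 without the other-lineage barcodes, but 0.25 when averaged over the class II ranges. Ms4a1 (CD20), in contrast, was at 420 and 466 CPM, with 0.15 and -0.04. Of 27 receptors, homing and stage antigens tested 4 were called higher (Il7r, Cxcr4, Cd93 and Bst1) and 2 lower (Fcer2a and Gpr183), with a median of 0.13. Without the other-lineage barcodes the median of the 26 tested was -0.04.

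**Figure D3:**
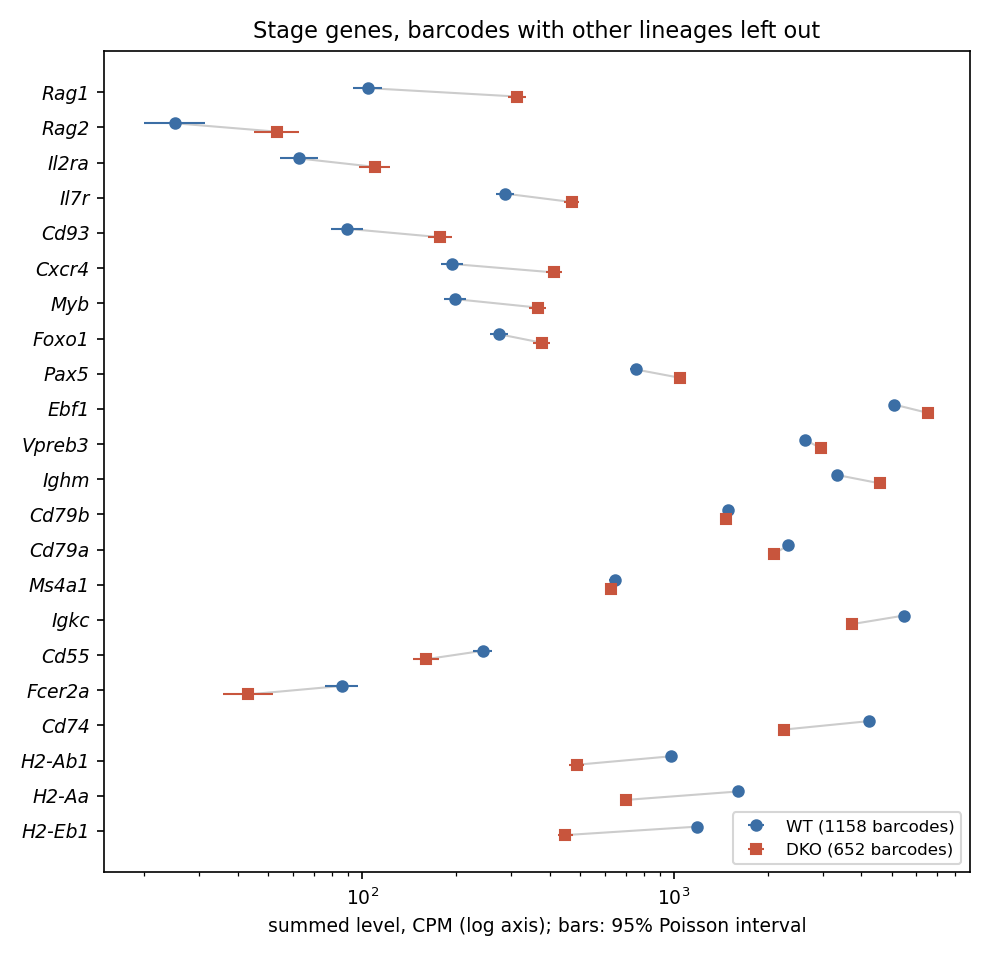
Levels in CPM (log axis) of stage genes in WT and DKO members without other-lineage barcodes, with bars for 95% Poisson counting intervals. Rag1 (104 and 314 CPM), Il7r (287 and 470) and Cxcr4 (194 and 411) were higher in DKO, H2-Aa (1609 and 701) and H2-Eb1 (1187 and 448) were lower, and Ms4a1 (646 and 629) overlapped.

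The MHC class II genes, which present peptides to CD4 T cells, stood lower in DKO as a group. Their promoters share an S-X-Y module, whose Y box is an inverted CCAAT element. The genes H2-Aa, H2-Eb1 and H2-Oa, which had large decreases, are shown with the letters of a Y box, TGATTGG, in capitals, each as the 200 bases before the gene's start in RefSeq on GRCm38.p6, read on the gene's own strand. H2-Aa encodes the alpha chain of I-A, H2-Eb1 the beta chain of I-E, and H2-Oa a chain of the modulator H2-O. The letters begin 50, 61 and 45 bases before the start.
H2-Aa (chr17:34287824-34288023, minus strand): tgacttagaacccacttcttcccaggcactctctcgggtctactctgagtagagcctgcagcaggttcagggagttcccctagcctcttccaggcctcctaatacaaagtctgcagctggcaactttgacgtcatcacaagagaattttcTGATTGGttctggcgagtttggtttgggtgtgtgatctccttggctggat
H2-Eb1 (chr17:34305667-34305866, plus strand): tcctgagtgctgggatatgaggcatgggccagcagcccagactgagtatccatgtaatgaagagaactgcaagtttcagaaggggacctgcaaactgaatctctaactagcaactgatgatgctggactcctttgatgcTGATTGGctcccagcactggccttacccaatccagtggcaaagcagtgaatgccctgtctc
H2-Oa (chr17:34092179-34092378, plus strand): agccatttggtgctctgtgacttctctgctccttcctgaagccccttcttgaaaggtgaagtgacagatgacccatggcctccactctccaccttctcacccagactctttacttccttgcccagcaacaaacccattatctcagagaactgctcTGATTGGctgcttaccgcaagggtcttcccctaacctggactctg

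The 7 letters were searched on either strand in promoter windows of the 250 bases before each start. They were found in 6 of the 10 class II list genes that had such a window, namely H2-Aa, H2-DMb1, H2-DMb2, H2-Eb1, H2-Oa and H2-Ob. A gene counted if any of its windows held them. Of all 32851 windows, from 27025 genes, 2375 (7.23%) held them, which is a share of windows and not of genes. A match describes these letters alone and says nothing of binding.

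H2-Aa, printed above, had 5604 UMIs in WT members and 2028 in DKO, or 1080 and 532 CPM, a log2 ratio of -1.02 (-1.10 to -0.95) and -1.20 without the other-lineage barcodes. H2-Eb1 went from 804 to 335 CPM, with -1.26 (-1.35 to -1.17) and -1.40, and H2-Ab1, the I-A beta chain, from 659 to 373 CPM, with -0.82 and -1.0. Cd74, the invariant chain that guides class II molecules through the cell, stood at 2826 and 1692 CPM, with -0.74 (-0.78 to -0.70) and -0.90. The transcripts of both chains and of the invariant chain were thus all lower in DKO members.

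Genes that load class II molecules differed in the same direction. H2-DMb2, a chain of the peptide editor H2-DM, had log2 ratios of -1.03 and -1.19, and H2-Oa had -1.07 and -1.27. Ciita, the coactivator that switches the group on, had -0.61 and -0.75. Of 13 class II genes tested 8 were called lower and 0 higher, with a median of -0.67, and without the other-lineage barcodes 10 were lower and 0 higher, with a median of -0.90. The 3 that did not pass were the proteases and reductase Ctss, Lgmn and Ifi30, which also serve other lysosomal proteins.

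Cells rich in class II were fewer in DKO. Cells were ranked by the share of their UMIs in Cd74, H2-Aa, H2-Ab1 and H2-Eb1 and cut into 3 equal ranges over both libraries, at 0.0467% and 0.966%. These ranges are not cell types. Within a factor of 1.2 of the lower limit lay 29 WT and 15 DKO cells of the low range and 25 and 15 of the middle range, and within that factor of the upper limit 25 and 15 of the middle and 37 and 11 of the high range. Without the other-lineage barcodes the high range held 41.0% (38.2 to 43.9) of WT and 19.5% (16.5 to 22.7) of DKO cells, and 41.1% and 19.4% at 1000 UMIs. The low range held 30.0% and 39.4% and the middle range 29.0% and 41.1%. Over the cells of a range, the median Vpreb3 share of UMIs was 0.445% in the low, 0.363% in the middle and 0% in the high range of WT, and 0.405%, 0.323% and 0.0252% in DKO. The median Igkc share was 0.228% in the low and 0.645% in the high range of WT, and 0.156% and 0.548% in DKO. Vpreb3 was thus scarcer and Igkc more abundant where class II was high. A single Ighd UMI, the most the rule allows, was held by 55.6% of WT and 58.3% of DKO cells in the high range. In the low range these shares were 12.1% and 22.96%. At 1000 UMIs, 14.6% of WT and 8.98% of DKO cells of this set held an Ighd UMI. The part of cells near the Ighd limit in the high range difference was not tested.

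Within the ranges the class II difference was smaller, with H2-Eb1 at -0.39 in the middle and -0.44 in the high range, which these genes fix in part because they set the ranges. Rag1, which took no part in the cut, stayed higher in DKO in the low range (234 and 548 CPM, log2 ratio 1.23, 1.0 to 1.46) and in the middle range (96.1 and 235 CPM, 1.28, 0.96 to 1.63). In the high range it had 1 WT and 0 DKO UMIs, so no level could be compared. Il7r differed less within the ranges, at 0.29 (0.12 to 0.45) in the low and 0.42 (0.23 to 0.61) in the middle range. Cxcr4 stayed at 0.89, 0.80 and 1.40 in the low, middle and high range.

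**Figure D4:**
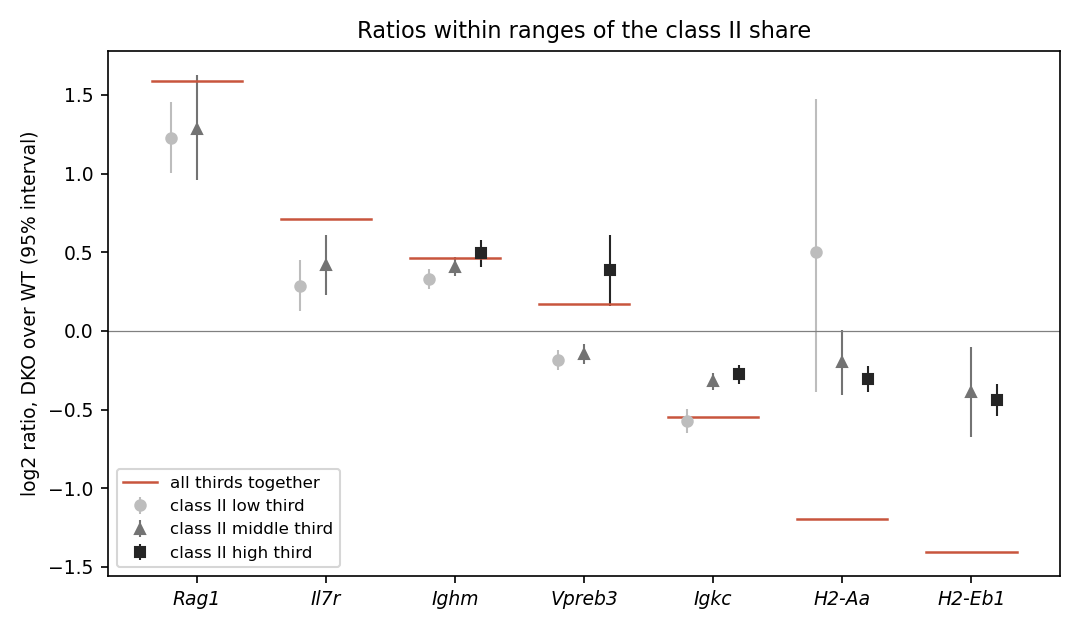
Log2 ratios of DKO over WT for named genes within the low, middle and high class II range of the members without other-lineage barcodes, with bars for 95% counting intervals. Ratios with under 10 UMIs in all are left out. Rag1 lies at 1.23 and 1.28 in the low and middle range and H2-Eb1 at -0.39 and -0.44 in the middle and high range, nearer 0 than its -1.40 over all ranges, drawn as a line.

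Cells with a Rag1 or Rag2 UMI were more frequent in DKO. Without the other-lineage barcodes they were 22.1% (19.7 to 24.6) of WT and 46.9% (43.0 to 50.8) of DKO cells, at median depths of 2407 and 3520 UMIs over all members of this set, and 10.3% and 26.9% at 1000 UMIs.

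The factors of the B lineage were mostly somewhat higher. Bach2, a repressor of plasma cell fate, had 10684 UMIs in WT members and 13971 in DKO, or 2059 and 3663 CPM, a log2 ratio of 0.83 (0.79 to 0.87) and 0.64 without the other-lineage barcodes. Myb, needed by dividing precursors, stood at 205 and 325 CPM, with 0.66 and 0.88. Pax5 had 0.66 and 0.48, Foxo1, which drives Rag1 and Il7r, 0.64 and 0.45, Spib 0.74 and 0.57, and Bcl6, which protects pre-B cells, 0.71 and 0.72. Lef1 had 0.91, of which 42 of 316 DKO UMIs were in 1 barcode, and 0.62 without the other-lineage barcodes, but -0.11 when averaged over the class II ranges.

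Of the 34 factors tested 11 were called higher and 1, Id3, lower, with a median of 0.47. Without the other-lineage barcodes 5 of 32 were higher (Bach2, Lef1, Sox4, Myb and Bcl6) and 1 lower, with a median of 0.39. Ebf1, which opens B lineage genes, was at 3376 and 4923 CPM, with 0.54 and 0.36, short of the fold. Irf4, which rises as light chains are rearranged, was at 154 and 195 CPM, with 0.33 and 0.16.

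Signalling genes of the receptor differed less. Syk, the kinase that docks on the Cd79 chains, stood at 585 and 954 CPM, a log2 ratio of 0.71 (0.64 to 0.78) and 0.57 without the other-lineage barcodes. Blnk, the adaptor it phosphorylates, had 0.62 and 0.47, and Pik3ap1 0.70 and 0.52. Bank1, a scaffold of later B cells, had -0.19 and -0.34. Of 23 genes tested 3 were called higher and 0 lower, with a median of 0.18, and without the other-lineage barcodes 1 was higher (Vav1) and 1 lower (Cr2), with a median of 0.04.

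**Figure D5:**
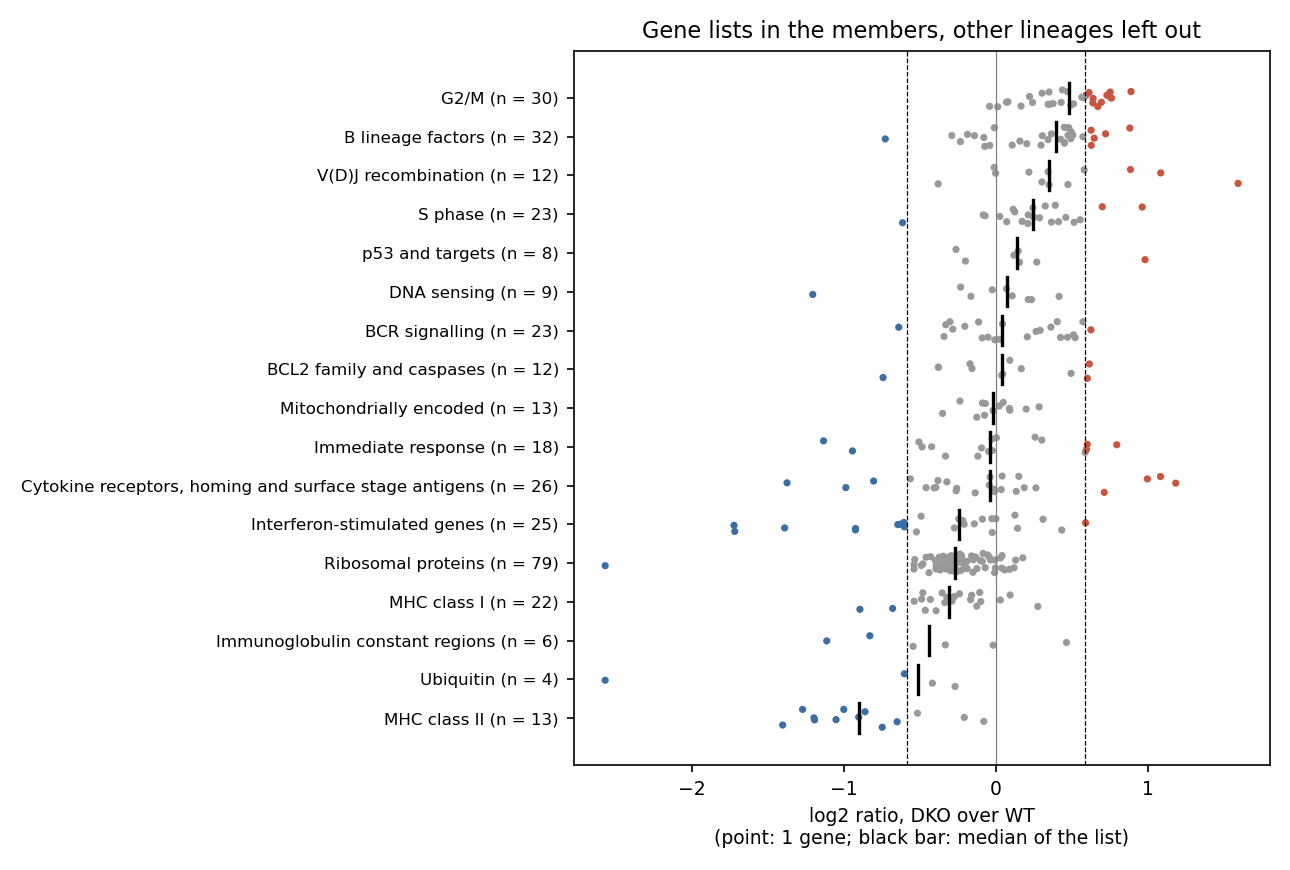
For each gene list, the log2 ratios of DKO over WT of its genes in the members without other-lineage barcodes, with a black bar at the list median, dashed lines at 1.5-fold and coloured points beyond them. MHC class II (median -0.90, 10 of 13 lower) lies to the left, and B lineage factors (0.39), V(D)J recombination (0.34) and G2/M genes (0.48) lie to the right of 0.

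Heavy and kappa chain transcripts differed in opposite directions once the other-lineage barcodes were left out. Ighm, the mu heavy chain and one of the markers (chr12:113418558-113422730), stood at 2246 CPM in WT and 3471 in DKO members (11655 and 13240 UMIs), a log2 ratio of 0.63 (0.59 to 0.66), and at 3333 and 4592 CPM without the other-lineage barcodes, with 0.46. Igkc, the kappa constant region (chr6:70726435-70726966), turned with 1 barcode: its ratio was 0.53 over all members and -0.55 (-0.58 to -0.51) without the other-lineage barcodes, at 5457 and 3737 CPM. Iglc2, a lambda constant region, had -0.55 and -0.83, and Iglc1 0.21 and -0.02. Iglc2 and Iglc3 are near-identical, so that the split of their UMIs is uncertain.

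Ighm was higher and Igkc lower in DKO within each class II range, at 0.33, 0.41 and 0.49 and at -0.57, -0.32 and -0.28 in the low, middle and high range. The variable, diversity and joining segments summed to 972 WT and 537 DKO UMIs without the other-lineage barcodes (304.5 and 197.6 CPM), a log2 ratio of -0.62 (-0.78 to -0.47). Kappa variable segments had -0.50 and lambda ones -1.03, and heavy chain ones -0.38 with an interval of -0.79 to 0.01. Ighg2c, the most changed gene over all members at 8.85, had 7 and 2713 UMIs, and 6 and 42 without the other-lineage barcodes.

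Light chain calls with at least 3 light chain UMIs were close between the libraries at full depth. Mixed calls were fewer in DKO at equal depth, and at full depth with at least 10 such UMIs. Of 1182 WT and 648 DKO members with at least 3 light chain UMIs, 34.5% (31.8 to 37.3) and 40.1% (36.3 to 44.0) had over 90% of them from Igkc, and 10.7% (9.04 to 12.7) and 11.7% (9.35 to 14.5) had under 10%. The remaining 54.7% (51.8 to 57.6) and 48.1% (44.2 to 52.1) held both kinds. The intervals overlapped for each of the 3 calls. Without the other-lineage barcodes mixed calls were 55.6% (52.6 to 58.5) and 48.9% (44.9 to 52.9), again with overlap. Kappa calls were then 33.5% and 39.9% and lambda calls 10.9% and 11.3%. The settings that follow kept those barcodes. After thinning to 1000 UMIs, mixed calls were 58.2% (55.0 to 61.4) of WT and 48.8% (44.2 to 53.4) of DKO cells and lambda calls 12.1% (10.1 to 14.41) and 17.8% (14.42 to 21.5), with no overlap for either. With at least 10 light chain UMIs at full depth, mixed calls were 61.9% (58.6 to 65.1) and 52.7% (48.2 to 57.2), also with no overlap. Free light chain RNA was in reach of such counts, since 29.8% of WT and 28.3% of DKO granule-rich barcodes held an Igkc UMI. Its part in the mixed calls was not tested.

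Of the interferon-stimulated genes past the fold, most were lower in DKO. Ifi27l2a, a gene strongly induced by type I interferon, had 2491 UMIs in WT members and 614 in DKO, or 480 and 161 CPM, a log2 ratio of -1.57 (-1.71 to -1.45) and -1.72 without the other-lineage barcodes. Bst2 (tetherin, which holds budding viruses) had 96.9 and 49.8 CPM, with -0.96 and -0.93. Isg15, a ubiquitin-like protein induced by interferon, had 138 and 53 UMIs with 38 of the latter in 1 barcode, a ratio of -0.92, and 63 and 13 UMIs without the other-lineage barcodes. Of 57 genes in the list 24 were tested, with 1 called higher (Ifi209) and 5 lower and a median of -0.12, and without the other-lineage barcodes 25 were tested, with 1 higher and 9 lower and a median of -0.25.

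Other DNA sensing genes stayed within the fold. Aim2, an inflammasome sensor of DNA, was at 83.8 and 83.4 CPM, a log2 ratio of -0.01 (-0.22 to 0.20), and Tmem173 (STING), the adaptor below cGAS, was at 26 and 33.3 CPM with 0.36 (-0.01 to 0.72). Of 9 genes tested 1, Ddx41 itself, was called lower and 0 higher, in both sets. Class I genes, which display peptides to CD8 T cells, had a median of -0.36 with 2 of 21 called lower and 0 higher, and -0.31 with 2 of 22 lower without the other-lineage barcodes. B2m, their shared light chain, was at 950 and 947 CPM.

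Some genes of G2 and mitosis were higher in DKO, while few S phase genes passed the fold. Mki67, a marker of cycling cells, stood at 239 and 379 CPM, a log2 ratio of 0.66 (0.55 to 0.78) and 0.67 without the other-lineage barcodes, and Top2a, a topoisomerase that resolves chromosomes, had 0.68 and 0.73. Of 30 genes of G2 and mitosis 6 were called higher and 0 lower, with a median of 0.37, and without the other-lineage barcodes 11 were higher and 0 lower, with a median of 0.48. S phase genes had 1 of 24 higher and 0 lower with a median of 0.00, then 2 of 23 higher and 1 lower with 0.24. Cells with at least 3 UMIs over 10 cycling genes were 11.8% (10.0 to 13.8) of WT and 14.7% (12.1 to 17.7) of DKO cells without the other-lineage barcodes, and 7.75% and 10.4% at 1000 UMIs, each pair with overlapping intervals. Mki67 was lower in DKO, at -1.32, when those cells were left out, which are picked by Mki67 and 9 other genes of the list.

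Few survival genes passed the fold. Bax, an effector of mitochondrial apoptosis, stood at 151 and 95.2 CPM, a log2 ratio of -0.66 (-0.85 to -0.49) and -0.74 without the other-lineage barcodes, and Bmf, a BH3-only activator, at 22.4 and 37.8 CPM with 0.75 and 0.61. These were the 2 of 14 BCL2 family and caspase genes called over all members, and Apaf1 was added at 0.60 without the other-lineage barcodes. Trp53inp1, a p53 target that is also induced in other ways, went from 82.5 to 178 CPM with 1.11 (0.94 to 1.29) and 0.98. It was the 1 gene called of 8 tested in the p53 list, in either set, and Trp53 itself was at 130 and 128 CPM.

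Immediate response genes had no common direction. Cd69, an activation antigen, stood at 120 and 64.0 CPM, a log2 ratio of -0.91 and -1.14 without the other-lineage barcodes, and Hspa8, a constitutive heat shock protein, at 611 and 846 CPM with 0.47 and 0.79. Of 19 genes tested 1 was called higher and 2 lower, with a median of 0.03, and without the other-lineage barcodes 3 of 18 were higher and 2 lower, with a median of -0.04.

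Ribosomal protein genes, 79 in all, had a median log2 ratio of -0.19, and -0.27 without the other-lineage barcodes. Several single genes differed by more. Hist1h2ap, one of several near-identical histone H2A copies whose reads may be split unevenly, went from 814 to 220 CPM with -1.89 and -1.75. The noncoding Gm10076 went from 571 to 195 CPM with -1.55 and -1.56. Both were also lower in all other filtered barcodes, at -2.18 and -1.60. The other large decreases, Pf4, Chil3, Ppbp, Hmox1, Cd9 and Ifitm3, are genes of platelets, macrophages or myeloid cells. Without the other-lineage barcodes Pf4 moved from -3.56 to -0.93 and Cd9 from -1.89 to -1.15. Chil3 moved from -3.55 to -1.73, Ppbp from -3.10 to -2.0 and Hmox1 from -2.91 to -1.69. Ifitm3 instead moved from -1.41 to -1.84, with 62 and 14 UMIs left. The intervals of all these genes stayed below 0.

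Among the large increases Commd10 went from 31.4 to 93.9 CPM, a log2 ratio of 1.57 (1.31 to 1.85) and 1.56 without the other-lineage barcodes, and Banp, a nuclear matrix-binding protein gene, from 37.4 to 89.2 CPM with 1.25 and 1.27. Reln had 1.35 and 1.09, Pde3b 1.16 and 1.0, and Tgfbr1, a receptor chain for TGF-beta, 1.15 and 1.0. Slpi, a protease inhibitor of neutrophils, went from 1.52 over all members to 0.34 without the other-lineage barcodes and the basophil protease Prss34 from 3.34 to -2.09, since 756 of 1091 and 371 of 372 DKO UMIs lay in 1 barcode each. Mitochondrial transcripts had a median of 0.06 with 0 of 12 called, and -0.02 with 0 of 13.

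Earlier and later B cells of the same libraries were set beside the members, without the other-lineage barcodes. Rag1 stood at 126 CPM in WT and 155 in DKO pro-B and large pre-B barcodes, a log2 ratio of 0.30 (0.05 to 0.55), against 1.59 (1.41 to 1.78) in members and 2.70 (1.90 to 3.86, from 11 and 94 UMIs) in mature barcodes. Il7r followed the same order, at 0.06 (-0.09 to 0.22), 0.71 (0.59 to 0.84) and 3.21 (2.66 to 3.93). The counting intervals did not overlap between the 3 stages for either gene, and no test of the differences was possible.

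Class II genes had another order. H2-Eb1 had -0.98 in pro-B and large pre-B barcodes, -1.40 in members and -0.52 in mature barcodes, and -1.07 in all other filtered barcodes. Ifi27l2a had -2.26, -1.72, -1.29 and -2.04 in that order. Vpreb3 was lower in DKO pro-B and large pre-B barcodes (-0.47), near level in members (0.17) and higher in mature ones (0.81), and Cxcr4 had 0.39, 1.08 and 1.32.

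The split by stage depends on depth, since a deeper cell reaches the Ighd limit sooner. With all B lineage barcodes pooled, thinned to 1000 UMIs and without the other-lineage barcodes, 8.63% of WT and 15.5% of DKO cells held a Rag UMI, 36.5% and 23.9% were in the high class II range, and 33.9% and 35.3% held an Ighd UMI. The Rag and class II differences were thus present when no stage was cut out.

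Genes that set the members apart from their neighbours were the same kind in both libraries. Against pro-B and large pre-B barcodes, the members had more of the light chain constant regions Iglc1 (961 against 10.4 CPM in WT, 948 against 1.59 in DKO), of Ms4a1 (646 against 22.9, and 629 against 11.7) and of Cd2. They had less Dntt (1.25 against 507 in WT, 1.84 against 508 in DKO), Vpreb2 and Lef1 (63.9 against 606, and 98.6 against 793). Against mature barcodes, members had more Rag1, Atp1b1 (437 against 29.3, and 636 against 81.5) and Myb (199 against 20.1, and 365 against 65.4), and less Bcl2 (109 against 329, and 83.9 against 318) and Cr2 (50.7 against 153, and 32.4 against 216). Those comparisons describe how the rule separates stages and are not tests.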

How the data were processed

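Single-cell libraries were made from flushed marrow with the Chromium Single Cell 3′ kit. Per the labels and the file headers, the authors aligned reads to mm10 and made UMI counts per gene and barcode with Cell Ranger 7.1.0, and the deposited counts are not normalised. The WT matrix holds all barcodes (135693452 UMIs) and the DKO matrix called barcodes only (117725934 UMIs).

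Counts were summed over the members of a library, divided by their total as CPM, and set against each other on the log2 scale (DKO against WT, 1 count added). Intervals were exact (Poisson for levels, conditional binomial for ratios, Clopper-Pearson for shares, 95%). A gene was called at 1.5-fold or more with a mean of at least 20 CPM. Named were the markers, the targeted genes, up to 4 genes per list by level and 4 by ratio, stage markers and the 10 largest increases and decreases of at least 50 mean CPM without variable segments. Genes named beyond that were chosen after their values were seen. Some genes that met these criteria are not reported here. Members and gene lists were chosen with earlier results of these data known. Gene positions are from GENCODE M21 (GRCm38). Barcodes were thinned to 1000 UMIs by random draws where shares were compared, and shallower barcodes were left out there. The analysis used Python 3.11.15, numpy 2.4.6, scipy 1.17.1, pandas 2.3.3 and Scrublet in scanpy 1.11.5, and the ratio step was tested on simulated counts.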

Additional observations from a re-analysis of the deposited data

How the results depend on the processing

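With 1 library per genotype the precision is that of counting alone, and depth differs between the libraries. No paired analysis was possible because each genotype has 1 library, and no replicate could be left out. Over 18 alternatives, 2031 values of 153 named genes kept their direction and size, 708 moved beyond their counting interval and 15 of 9 genes changed direction. For the 17 list medians these counts were 283, 23 and 0. Other scalings shifted the median of all genes by -0.04 and -0.06.

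Genes called higher in DKO (406) were 743 with members thinned to 1000 UMIs, 243 at a minimum of 50 CPM and 1714 with no minimum beyond 3 UMIs. Genes called lower (307) were 187 when barcodes were thinned before the rule, 203 as a mean over the class II ranges, 130 at 50 CPM and 2569 with no minimum. List genes called lower (24) were 40 without cycling members, and those called higher (36) were 18 as a mean over the class II ranges. Without cycling members the log2 ratio was -1.25 for Kif11, -1.32 for Mki67, -0.62 for Nusap1, -1.20 for Top2a and 0.29 for Pf4. As a mean over the class II ranges it was 0.25 for Fcer2a, -0.11 for Lef1, -0.081 for Slpi and -1.28 for Prss34. Prss34 also stood at -2.09 without the other-lineage barcodes, -1.6 there as a mean per cell, -4.11 without barcodes above 10000 UMIs, -1.905 thinned before the rule, -1.675 with no Ighd UMI and -2.26 without its top barcode. The cause of these changes was not tested beyond the single barcodes named for Prss34, Slpi and Pf4, and the cycling genes themselves chose the cycling cells.

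Members were 10.9% (WT) and 8.88% (DKO) of barcodes with little hemoglobin, 54.2% and 45.3% of B lineage barcodes, and 6.81% of WT barcodes of at least 1000 UMIs. Cycling cells were 9.05% and 11.4% when thinned and 11.8% and 14.7% without the other-lineage barcodes, and cells with Rag1 or Rag2 were 9.62% and 25.8% when thinned. Kappa calls were 29.6% and 33.4% when thinned and 26.5% and 33.3% with at least 10 light chain UMIs. Mixed calls were 58.2% and 48.8% when thinned and 61.9% and 52.7% with at least 10 such UMIs, and lambda calls 12.1% and 17.8% when thinned. Leaving out barcodes above 10000 UMIs or the top barcode, thinning before the rule, requiring no Ighd UMI and averaging over the class II ranges or per cell without the other-lineage barcodes were added after the data were seen, as was the criterion for those barcodes.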
